A study of Mus musculus with 16 samples.

Results

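The cortex of female 5xFAD mice fed rapamycin (FR) was compared with that of female 5xFAD mice fed a control diet (FC). All libraries that the sample labels give as FR or FC were taken, which were 4 FR and 4 FC libraries, 8 of the 16 in the series. The 5xFAD mouse develops amyloid plaques early in life. Every mouse in the series was a heterozygous 5xFAD animal on a C57BL/6-SJL hybrid background, with human amyloid precursor protein (Swedish, Florida and London mutations) and mutant human presenilin-1 driven by the neuron-specific Thy-1 promoter, and no wild-type littermates were analysed here. FR mice received chow with microencapsulated rapamycin and FC mice received chow with the carrier alone, from 2 to 5 months of age. Batch 1 held FC1, FC2, FC3, FR1 and FR2, and batch 2 held FC4, FR4 and FR5, by the labels. The study's text describes pooled cortical samples in one place and single mice in another, so p values measure the spread between these libraries.

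Rapamycin binds the immunophilin FKBP12 and the complex inhibits mTORC1, the kinase complex that couples amino acids and growth factors to cell growth. Active mTORC1 promotes ribosome production, translation of ribosomal protein mRNAs and lipid synthesis, and it restrains autophagy and the production of lysosomes. Much of this control acts on translation and phosphorylation, which RNA-seq of whole tissue does not measure. In cortex, neurons, astrocytes, oligodendrocytes and microglia all contribute RNA to a bulk library, so a lower level of a marker can come from fewer cells or from less RNA in each cell, which cannot be told apart here.

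The libraries held 16393501 to 20593089 read pairs counted on genes. Xist, the RNA of the inactive X chromosome, was at 492 to 1273 CPM (read pair counts scaled to a common library size) in the 8 libraries, and the Y-linked Uty and Kdm5d were at 0 in each. Markers of cortical glutamatergic neurons summed to 7499.8 to 8505 CPM in FC and 7004 to 8360.3 CPM in FR. Choroid plexus markers, which mark a neighbouring tissue, summed to 16.1 to 341 CPM in FC and 33.9 to 111 CPM in FR. In a principal component analysis, 43% of the variance fell on a first component that separated the batches (87.3% of it lay between batches), and 23.1% on a second with 72.4% of it between FC and FR.

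Of 15958 genes tested, 3 met both conditions for a DEG, which were an adjusted p below 0.05 and a change of 1.5-fold or more, or 0.0188% of the genes. Etnppl and Gm3608 rose and Kcnj6 fell in FR. Adjusted p values are those of edgeR's quasi-likelihood test with batch as a term and Benjamini-Hochberg adjustment over all genes tested. Many genes lay just above the threshold. Below an adjusted p of 0.06 there were 232 genes, these 3 included, of which 201 were lower and 31 higher in FR, and 70 genes shared the value 0.0517. Unadjusted p values were below 0.05 for 3640 genes, where 798 would be expected by chance, with 1685 higher (10.6%) and 1955 lower (12.3%) in FR. All 4 FR libraries lay above all 4 FC libraries in CPM for 342 genes (2.14%) and below them for 600 genes (3.76%). These percentages are the background against which the counts of gene lists are set below.

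The number of genes that passed depended on batch 2 and on the test. Without FR4, 1684 of 16179 genes tested passed, 677 of them higher. Without FC4, 486 of 16189 passed, 130 of them higher. These counts are the background for the list counts without FR4 or FC4 given below. With FC4 left out, batch 2 holds no FC library, so that fit compares FR with FC only within batch 1, as the next fit does. In batch 1 alone (3 FC and 2 FR libraries) 1029 genes passed, 376 of them higher. DESeq2 on the 8 libraries called 1208 genes, 400 of them higher. With the replicate number as a block for the libraries numbered 1, 2 and 4, only 1 gene passed, Etnppl. With the exon length slope of each library as a covariate, edgeR's quasi-likelihood test called 0 genes, with 392 at an unadjusted p under 0.05.

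**Figure D1:**
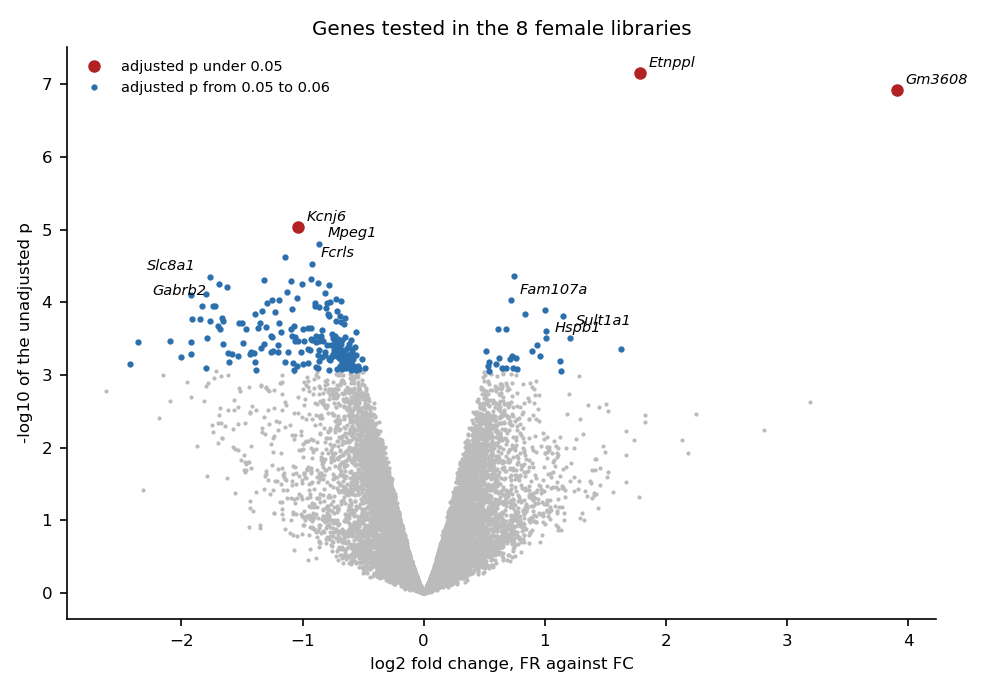
Each point is 1 of the 15958 genes tested, with the log2 fold change of FR against FC on the x axis and the -log10 of the unadjusted p on the y axis. Etnppl, Gm3608 and Kcnj6 (red) passed the threshold, and the genes in blue, from there up to an adjusted p of 0.06, lay mostly on the lower side (201 of the 232 genes below 0.06 were lower).

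Etnppl encodes ethanolamine-phosphate phospho-lyase, an enzyme of phospholipid breakdown that is enriched in astrocytes. It lies on chromosome 3 (chr3:130617448-130637521, + strand, GRCm38). Etnppl was at 20.8, 20.5, 17.8 and 12.6 CPM in FC1 to FC4 and 58.8, 80.1, 48.8 and 34.8 CPM in FR1, FR2, FR4 and FR5. Every FR library was above every FC library, within both batches, and it rose, with 17.9 ± 3.80 CPM in FC and 55.6 ± 19.1 CPM in FR (SD, n = 4 each) (log2 fold change 1.79, SE 0.15, adjusted p = 0.000958). The difference in mean log2 CPM was 1.80 in batch 1 and 1.70 in batch 2. Without any 1 library the log2 fold change stayed between 1.65 and 1.89, and the adjusted p stayed under 0.05. The call was lost without the batch term (log2 fold change 1.63, adjusted p = 0.487) and with either library measure as a covariate, exon length slope (1.95, adjusted p = 0.758) or mitochondrial share (1.87, adjusted p = 0.846).

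Kcnj6 encodes GIRK2, a G protein-gated inwardly rectifying potassium channel that lowers the excitability of neurons. It lies at chr16:94749266-94997696 on the - strand. Kcnj6 was at 19.5, 20.4, 20.8 and 33.8 CPM in FC1 to FC4 and 9.10, 9.73, 20.6 and 15.2 CPM in FR1, FR2, FR4 and FR5. Within each batch the FR libraries were below the FC libraries, while FR4 in batch 2 lay at the level of FC2 and FC3 in batch 1. It fell in FR (log2 fold change -1.04, SE 0.14, adjusted p = 0.0487), and the call was lost without any 1 of FC1, FC2, FC3, FR1, FR2 or FR5 (adjusted p from 0.0682 to 0.217). It was kept without FC4 (0.0142) and without FR4 (0.00448), and lost with the replicate number as a block (log2 fold change -0.95, adjusted p = 0.0667).

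Gm3608 is a gene on chromosome 1 (chr1:105455971-105458829, + strand) that GENCODE annotates as a pseudogene, and 91.4% of the 25-base words of its transcript also occur in Capza1, which encodes an actin filament capping protein. Gm3608 was at 0.586, 0.113, 0.489 and 0.485 CPM in FC1 to FC4 and 6.03, 7.07, 6.01 and 6.70 CPM in FR1, FR2, FR4 and FR5. It rose, with all FR libraries far above all FC libraries (log2 fold change 3.91, SE 0.35, adjusted p = 0.000958), and the call was lost with the replicate number as a block (log2 fold change 4.0, adjusted p = 0.0519) and in a fit of all 16 libraries (3.88, adjusted p = 0.0572). Capza1, named here because of the shared sequence, was at 28.2, 29.3, 36.2 and 26.8 CPM in FC1 to FC4 and 15.6, 18.3, 19 and 21.6 CPM in FR1, FR2, FR4 and FR5, with every FR library below every FC library (log2 fold change -0.71, SE 0.15, adjusted p = 0.0533). In the male libraries, scaled over all 16, Gm3608 split within both diets: it was at 0.452 CPM in MC2 and 0.604 CPM in MR2, and between 5.80 and 14 CPM in the other 6 male libraries. Read pairs of near-identical copies can be assigned to either gene, so the level of each is uncertain.

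**Figure D2:**
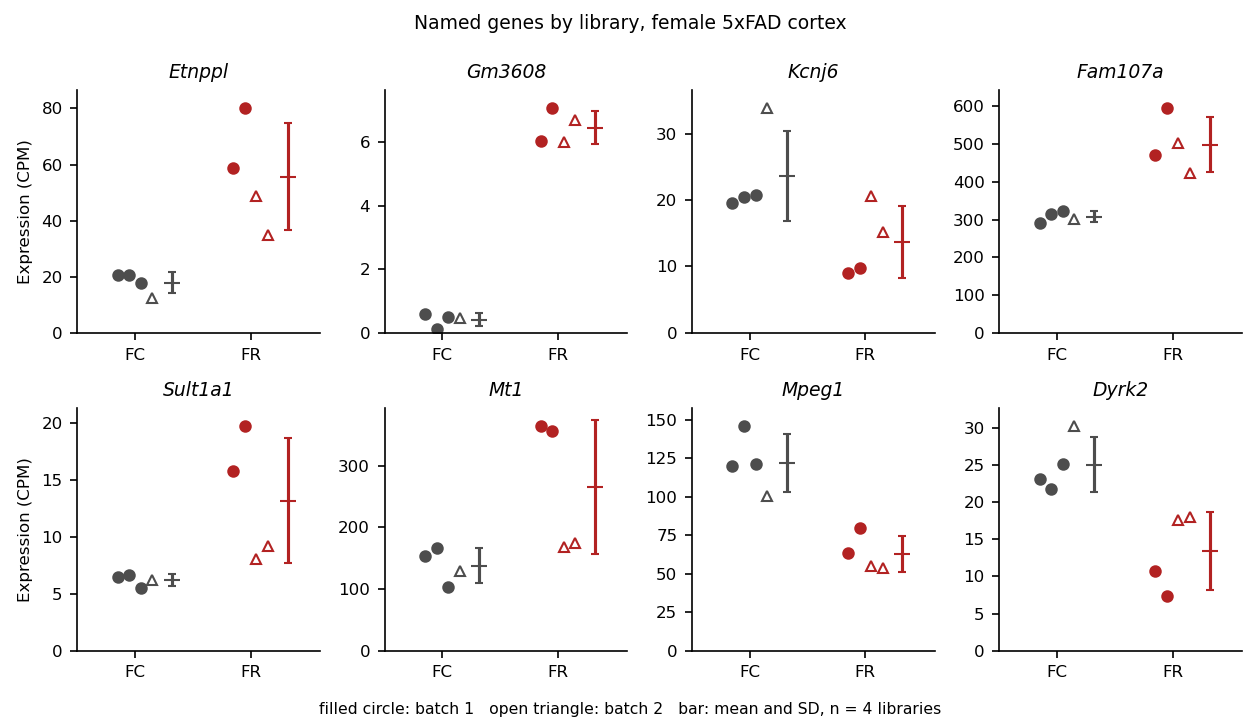
Expression of 8 named genes in CPM (y axis, from 0) in each FC and FR library, with the mean and SD of 4 libraries beside the points, filled circles for batch 1 and open triangles for batch 2. Etnppl, Gm3608, Fam107a, Sult1a1, Mt1, Mpeg1 and Dyrk2 did not overlap between the groups, while Kcnj6 overlapped across batches.

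The other genes that were higher in FR with the lowest p values held several known targets of glucocorticoids, the adrenal steroids that act through a nuclear receptor. Fam107a, a stress-inducible actin-binding protein of astrocytes, was at 291, 315, 322 and 303 CPM in FC1 to FC4 and 471, 595, 504 and 423 CPM in FR1, FR2, FR4 and FR5. Its FR libraries all lay above its FC libraries, and the difference did not pass the threshold (log2 fold change 0.72, SE 0.13, adjusted p = 0.0517). Sult1a1, a phenol sulfotransferase, was at 6.50, 6.68, 5.49 and 6.24 CPM in FC1 to FC4 and 15.7, 19.7, 8.07 and 9.22 CPM in FR1, FR2, FR4 and FR5, again with no overlap and a larger difference in batch 1 than in batch 2 (log2 fold change 1.15, SE 0.21, adjusted p = 0.0517). Mt1, a metallothionein that binds zinc and copper, was at 154, 166, 103 and 129 CPM in FC1 to FC4 and 365, 356, 168 and 175 CPM in FR1, FR2, FR4 and FR5 (log2 fold change 1.01, SE 0.20, adjusted p = 0.0528). FR1 and FR2 were about equal and well above FR4 and FR5, which in turn stood above all FC libraries by a small margin. Mt2, its neighbour and paralogue, was also higher in FR1 and FR2 than in FR4 and FR5, from 44.9 to 63.4 CPM in FC and from 63.4 to 153.6 CPM in FR (log2 fold change 0.96, SE 0.20, adjusted p = 0.0533), and FR5 was level with the highest FC library.

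Of the 22 glucocorticoid response genes listed, 21 were tested and 0 passed the adjusted threshold. At an unadjusted p under 0.05, 11 were higher and 4 lower, against 10.6% and 12.3% of all genes. Fam107a, Sult1a1, Mt1 and Mt2 were the members of lowest p, all higher, and the 4 lower members are not named here. The median log2 fold change of the 21 was 0.54, against 0.013 over all genes tested. It was 0.82 within batch 1 and -0.065 within batch 2, and it ran from 0.31 to 0.82 when 1 library was left out, lowest without FR2 and highest without FC4. Without FC4, 10 of the 21 passed the adjusted threshold, all higher, and without FR4, 11 passed, 9 of them higher. Fam107a differed by 0.78 in batch 1 and 0.61 in batch 2 (log2 CPM), and Sult1a1 by 1.49 and 0.46.

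Promoter windows of Etnppl, Fam107a and Sult1a1, which were higher with no overlap, are shown with a motif search, from RefSeq on GRCm38.p6, 250 bases before to 50 bases after a start site, 5′ to 3′ on the strand of the gene. Capitals mark the half-site AGAACA of the glucocorticoid receptor on either strand. Etnppl has 2 windows and the first is at chr3:130617198-130617497 (+), Fam107a has 3 and the second is at chr14:8309730-8310029 (-), and Sult1a1 has 1 at chr7:126676369-126676668 (-).
Etnppl: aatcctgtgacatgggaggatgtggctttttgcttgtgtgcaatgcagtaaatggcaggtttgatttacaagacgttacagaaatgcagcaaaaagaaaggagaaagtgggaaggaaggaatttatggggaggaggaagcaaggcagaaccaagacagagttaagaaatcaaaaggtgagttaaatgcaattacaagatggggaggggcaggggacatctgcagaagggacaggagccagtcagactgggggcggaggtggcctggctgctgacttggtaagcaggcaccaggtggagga
Fam107a: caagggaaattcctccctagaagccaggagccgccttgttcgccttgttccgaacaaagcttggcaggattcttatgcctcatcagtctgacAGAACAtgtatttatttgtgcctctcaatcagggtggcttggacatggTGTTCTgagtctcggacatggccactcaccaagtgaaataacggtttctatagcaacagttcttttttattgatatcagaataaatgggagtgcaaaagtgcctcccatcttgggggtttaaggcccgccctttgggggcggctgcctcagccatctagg
Sult1a1: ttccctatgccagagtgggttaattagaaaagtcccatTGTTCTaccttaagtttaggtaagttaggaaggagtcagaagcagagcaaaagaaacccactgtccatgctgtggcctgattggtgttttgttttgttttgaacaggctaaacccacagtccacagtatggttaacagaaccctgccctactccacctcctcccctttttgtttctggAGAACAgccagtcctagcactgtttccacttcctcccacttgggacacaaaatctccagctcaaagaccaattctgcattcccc
These letters occurred 2 times in the Fam107a window, 2 times in the Sult1a1 window and in neither Etnppl window. The Fam107a window was shown because it held them. It overlaps the third window of that gene, which held the same 2 matches, while the first window of Fam107a and the window of Mt1 held 0. Of all 32851 windows 19% held them, as did 12.8% of the 14770 windows of tested genes. Of the 32 windows of the 20 listed glucocorticoid response genes that had one, 7 did (21.9%). These windows belonged to 4 of the 20 genes, and the overlapping windows of Fam107a were among them. A match is a description of the letters and not a binding site.

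The remaining genes of this rank had different roles. Hspb1, a small heat shock protein, was at 4.20, 5.15, 3.26 and 5.45 CPM in FC1 to FC4 and 8.74, 8.86, 12.1 and 8.55 CPM in FR1, FR2, FR4 and FR5, with no overlap (log2 fold change 1.01, SE 0.20, adjusted p = 0.0528). Tppp3, a tubulin polymerization protein, was at 26.5 ± 6.17 CPM in FC and 49.9 ± 16.3 CPM in FR (SD, n = 4 each) and overlapped between the groups through FR4 (log2 fold change 1.0, SE 0.18, adjusted p = 0.0517). Fth1, the ferritin heavy chain that stores iron, was at 1627 ± 262 CPM in FC and 2408 ± 674 CPM in FR (SD, n = 4 each) (log2 fold change 0.68, SE 0.13, adjusted p = 0.0517). Llph, a small nucleolar protein, had a log2 fold change of 0.61, adjusted p = 0.0517. The long non-coding RNA 2810049E08Rik was low in both groups, with 1.56 to 2.04 CPM in FC and 3.59 to 4.55 CPM in FR (log2 fold change 1.21, SE 0.24, adjusted p = 0.0528). The mitochondrial proline tRNA gene mt-Tp (0.74, adjusted p = 0.0517), which is only 67 bases long, and the chromosome 1 pseudogene Gm10925 (0.83, adjusted p = 0.0517) completed this set. All 25-base words of Gm10925 also occur in mt-Atp6, so its counts cannot be told apart from mitochondrial RNA.

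Several microglial genes were at lower levels in FR, though 0 of the 12 homeostatic markers passed the adjusted threshold. Mpeg1, which encodes the pore-forming perforin-2 of macrophages, had the lowest p of all genes that missed the threshold. Mpeg1 was at 120.0, 146, 121 and 100.3 CPM in FC1 to FC4 and 63.4, 79.5, 55.2 and 53.6 CPM in FR1, FR2, FR4 and FR5. Every FR library was below every FC library, and the differences in batch 1 (-0.85) and batch 2 (-0.88) were alike (log2 fold change -0.86, SE 0.12, adjusted p = 0.0517). Fcrls, an Fc receptor-like scavenger receptor that marks microglia of the brain, was at 60.1, 82.2, 64.4 and 51.6 CPM in FC1 to FC4 and 35.4, 35.1, 24.9 and 32.6 CPM in FR1, FR2, FR4 and FR5. The groups did not overlap, and the difference was again similar in both batches (log2 fold change -0.92, SE 0.14, adjusted p = 0.0517).

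Of 12 markers of homeostatic microglia, all were tested and 11 had a log2 fold change below 0. At an unadjusted p under 0.05, 6 were lower, against 12.3% of all genes. In 5 (against a background of 3.76%) all FR libraries lay below all FC libraries. The summed level of the 12 was 716, 856, 745 and 654 CPM in FC1 to FC4 and 571, 589, 507 and 550.4 CPM in FR1, FR2, FR4 and FR5. The sum was thus lower in each FR library than in any FC library. The median log2 fold change was -0.33, with -0.35 in batch 1, -0.33 in batch 2 and -0.30 with exon length offsets, and it ran from -0.35 to -0.24 when 1 library was left out. Cx3cr1, the fractalkine receptor, had a log2 fold change of -0.41, adjusted p = 0.0924, and Csf1r, the receptor on which microglia depend for survival, one of -0.39, adjusted p = 0.097. The groups overlapped in neither of these genes, and neither passed the adjusted threshold. P2ry12 and Tmem119, which define homeostatic microglia, overlapped, with P2ry12, a purine receptor that guides their processes, at 29.7 to 51.4 CPM in FC and 28.2 to 39.1 CPM in FR (log2 fold change -0.10, adjusted p = 0.709). Tmem119, a membrane protein used to tell microglia from other macrophages, was at 26.4 to 31.8 CPM in FC and 22.2 to 35.1 CPM in FR (log2 fold change 0.043, adjusted p = 0.89). Without FR4, 3 of the 12 passed the adjusted threshold, and without FC4, 1 passed, all lower.

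Fcrls is the member of this list with the largest difference, and its promoter window (chr3:87263475-87263774, - strand, RefSeq on GRCm38.p6) is shown with the core GAGGAA of the myeloid factor PU.1, on either strand, in capitals.
Fcrls: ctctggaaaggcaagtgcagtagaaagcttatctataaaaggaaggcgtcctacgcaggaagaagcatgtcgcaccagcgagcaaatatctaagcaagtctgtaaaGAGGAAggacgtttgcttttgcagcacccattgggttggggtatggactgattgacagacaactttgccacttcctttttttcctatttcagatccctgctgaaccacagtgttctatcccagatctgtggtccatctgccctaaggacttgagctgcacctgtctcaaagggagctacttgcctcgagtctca
The window held these letters 1 time, as did 28.3% of all windows and 26.6% of those of tested genes at least once. Of the 9 windows of the 7 listed genes that had one, 3 held them (33.3%). The windows of Mpeg1 and Cx3cr1, which were also searched, held 0 matches each.

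Genes of plaque-associated microglia were less even. Of 20 such markers, all tested, 17 had a log2 fold change below 0. At an unadjusted p under 0.05, 3 were lower and 1 was higher (against 12.3% and 10.6% of all genes). Clec7a, the receptor dectin-1, was at 14, 20.5, 14 and 9.64 CPM in FC1 to FC4 and 8.38, 10.9, 4.90 and 4.12 CPM in FR1, FR2, FR4 and FR5 (log2 fold change -0.86, SE 0.19, adjusted p = 0.055). FR4 and FR5 were the lowest libraries, and FR2 overlapped FC4. Itgax, which encodes the integrin CD11c, did not overlap, with 7.66 to 11.2 CPM in FC and 4.84 to 6.90 CPM in FR (log2 fold change -0.74, SE 0.19, adjusted p = 0.0765). Apoe, a lipid transport protein made by astrocytes and by activated microglia, was the member that was higher, at 1292 ± 271 CPM in FC and 1665 ± 235 CPM in FR (SD, n = 4 each) (log2 fold change 0.39, SE 0.17, adjusted p = 0.198). The median of the list was -0.18, with -0.046 in batch 1 and -0.53 in batch 2, and -0.40 with exon length offsets. It was -0.27 without FC3 and -0.070 without FC4, and 2 of the 20 passed the adjusted threshold without FR4, both lower.

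**Figure D3:**
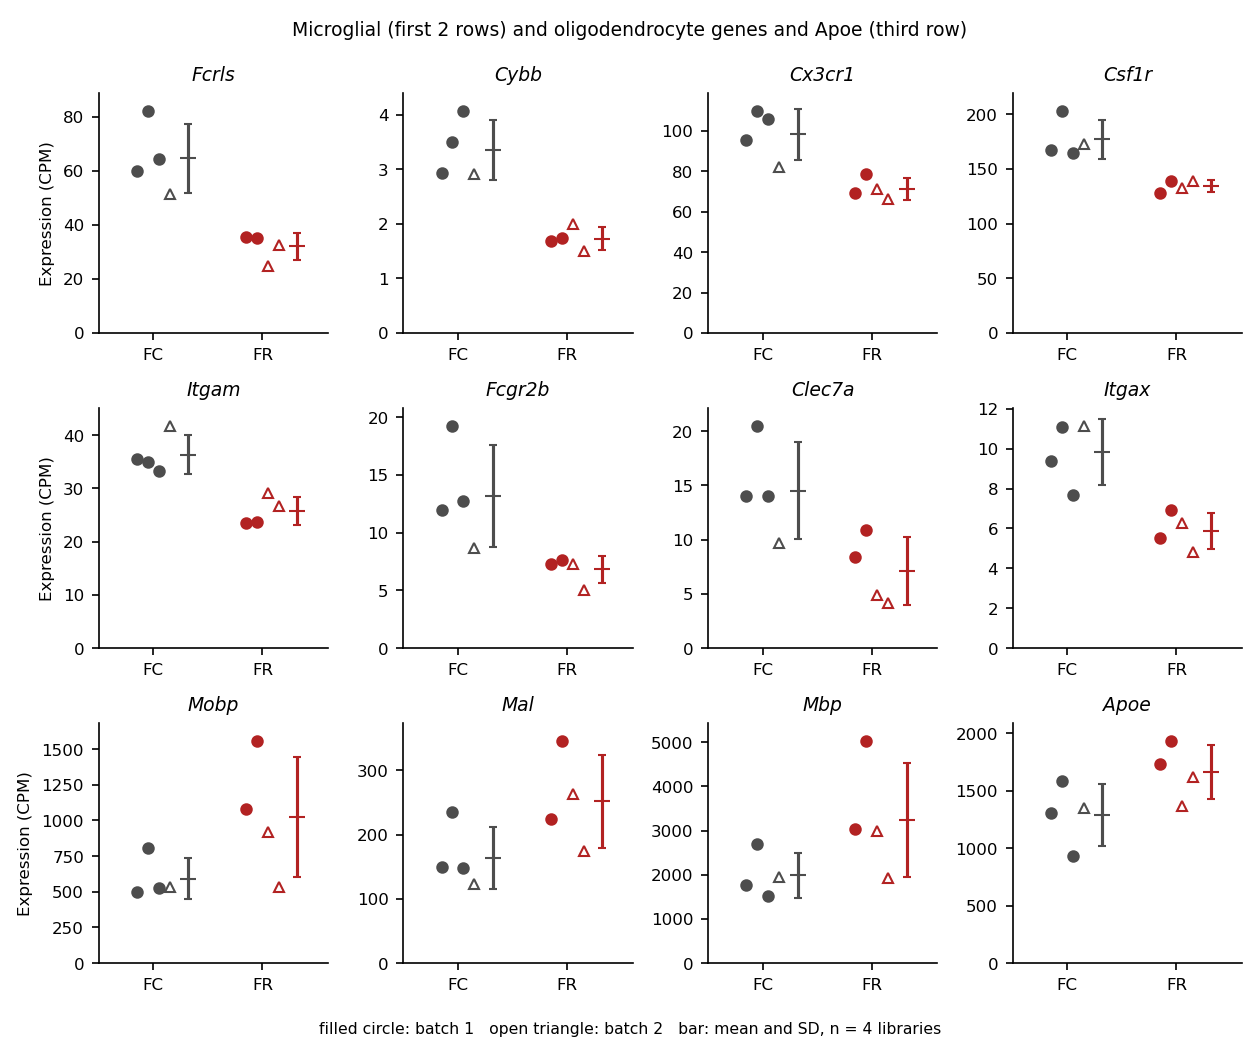
Expression in CPM (y axis, from 0) of 8 microglial genes, 3 oligodendrocyte genes and Apoe in each library, with the mean and SD of 4 libraries, filled circles for batch 1 and open triangles for batch 2. Fcrls, Cybb, Cx3cr1, Csf1r, Itgam, Fcgr2b and Itgax were lower in all FR libraries, whereas Mobp, Mal and Mbp overlapped because FC2 was high and FR5 low.

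The lipid and phagosome genes that the study singled out on these samples, whose direction is therefore not independent evidence, did not pass the threshold apart from Etnppl. Pla1a, a phosphatidylserine phospholipase, was at 1.03, 0.962, 0.761 and 1.21 CPM in FC1 to FC4 and 2.45, 2.99, 1.67 and 1.65 CPM in FR1, FR2, FR4 and FR5, with no overlap at a low level (log2 fold change 1.18, SE 0.32, adjusted p = 0.0849). Pla2g3, a secreted phospholipase A2, was at 1.47, 2.26, 2.07 and 7.09 CPM in FC1 to FC4 and 2.91, 4.67, 7.02 and 4.95 CPM in FR1, FR2, FR4 and FR5 (log2 fold change 0.49, SE 0.30, adjusted p = 0.35). FC4 was the highest library of all, and the difference was 0.92 in batch 1 and -0.26 in batch 2. Among phagosome genes, Fcgr2b, the inhibitory Fc gamma receptor, was at 13.1 ± 4.43 CPM in FC and 6.82 ± 1.19 CPM in FR (SD, n = 4 each) (log2 fold change -0.81, SE 0.21, adjusted p = 0.0784), Cybb, the catalytic subunit of the phagocyte oxidase, at 3.36 ± 0.554 CPM in FC and 1.73 ± 0.211 CPM in FR (SD, n = 4 each) (log2 fold change -0.92, SE 0.26, adjusted p = 0.0869), and Tlr2, a receptor for bacterial lipoproteins, at 4.84 ± 1.26 CPM in FC and 2.96 ± 0.581 CPM in FR (SD, n = 4 each) (log2 fold change -0.66, SE 0.26, adjusted p = 0.162). The groups did not overlap in any of these 3 genes. H2-Q7, a non-classical MHC class I gene with close paralogues, had a log2 fold change of -0.80, adjusted p = 0.255, and Itgb3, the integrin beta 3 chain, one of -0.46, adjusted p = 0.229, and both overlapped.

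In the wider lists, 7 of 26 complement, Fc receptor and phagocyte oxidase genes were lower and 0 higher at an unadjusted p under 0.05. Of all genes 12.3% were lower at that p. The median of the list was -0.29, and 5 genes (against 3.76%) had all FR libraries below all FC libraries. Without FR4, 3 of the 26 passed the adjusted threshold, all lower, against 1684 of 16179 over all genes. Itgam, which encodes the integrin CD11b of myeloid cells, was at 35.6, 34.9, 33.2 and 41.8 CPM in FC1 to FC4 and 23.5, 23.6, 29.1 and 26.7 CPM in FR1, FR2, FR4 and FR5, without overlap (log2 fold change -0.56, SE 0.11, adjusted p = 0.0528), and C3ar1, the receptor for complement C3a, had a log2 fold change of -0.49, adjusted p = 0.159. Interferon response genes had 2 of 20 lower, with Ifit1, an antiviral RNA-binding protein, at -0.70, adjusted p = 0.0909. None of 18 MHC class I and antigen presentation genes had an unadjusted p under 0.05. Among 39 tested genes of lipid droplets, fatty acids and phospholipases, 11 were higher and 3 lower at an unadjusted p under 0.05. Of all genes, 10.6% were higher and 12.3% lower at that p. In this list 6 genes (against 2.14%) lay above FC in all FR libraries, and the median was 0.13. Pla2g7, the platelet-activating factor acetylhydrolase, was at 90.2 ± 7.5 CPM in FC and 124 ± 14.5 CPM in FR (SD, n = 4 each) (log2 fold change 0.51, SE 0.11, adjusted p = 0.0533), Plin3, a lipid droplet coat protein, had a log2 fold change of 0.47, adjusted p = 0.0784, and Acaca, the enzyme that commits acetyl-CoA to fatty acid synthesis, one of -0.47, adjusted p = 0.0714. In this list, which holds Etnppl, 7 genes passed the adjusted threshold without FR4, 6 of them higher, and 3 without FC4, all higher.

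Oligodendrocyte markers had a log2 fold change above 0 for all 12 genes tested, and 0 passed the adjusted threshold. At an unadjusted p under 0.05, 7 of the 12 were higher, against 10.6% of all genes. The summed level of the 12 was 4116, 6504, 4022 and 4424 CPM in FC1 to FC4 and 6648, 10249, 7222 and 4601 CPM in FR1, FR2, FR4 and FR5. FC2 reached the level of FR1, and FR5 lay close to FC4, so the groups overlapped in the sum. The median log2 fold change was 0.47, with 0.40 in batch 1, 0.48 in batch 2 and 0.45 with exon length offsets, and it ran from 0.34 to 0.63 without 1 library. Mobp, a structural protein of compact myelin, was at 591 ± 143 CPM in FC and 1023 ± 423 CPM in FR (SD, n = 4 each) (log2 fold change 0.87, SE 0.23, adjusted p = 0.0754). Mal, a myelin proteolipid, had a log2 fold change of 0.74, adjusted p = 0.0849, Cldn11, the tight junction protein of myelin, one of 0.69, adjusted p = 0.0998, and Mbp, myelin basic protein, one of 0.77, adjusted p = 0.107. Among 8 precursor markers, Olig1, a transcription factor of the lineage, was higher without overlap (0.36, adjusted p = 0.146) and Pdgfra, the growth factor receptor of precursors, was lower (-0.35, adjusted p = 0.194).

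Astrocyte markers were mixed, with 3 higher and 1 lower of 12 at an unadjusted p under 0.05 (against 10.6% and 12.3% of all genes). Gjb6, the gap junction protein connexin 30, was at 47.6 ± 8.67 CPM in FC and 69.4 ± 7.16 CPM in FR (SD, n = 4 each) without overlap (log2 fold change 0.52, SE 0.14, adjusted p = 0.0855), Ndrg2 had a log2 fold change of 0.30, adjusted p = 0.137 and Clu, the chaperone clusterin, one of 0.37, adjusted p = 0.126. Aqp4, the water channel of astrocyte endfeet, was the member that was lower (-0.53, adjusted p = 0.0691). Of the 11 reactive astrocyte genes tested, 1 was higher and 3 were lower. Gfap, the intermediate filament of reactive astrocytes, was at 619.6, 876, 506 and 606 CPM in FC1 to FC4 and 516, 550.0, 406 and 344 CPM in FR1, FR2, FR4 and FR5 (log2 fold change -0.46, SE 0.17, adjusted p = 0.148). FR4 and FR5 were the lowest, and the highest FR library was above the lowest FC library. Serpina3n, a serine protease inhibitor, had a log2 fold change of -0.47, adjusted p = 0.175, and the chemokine Cxcl10, at no more than 3.06 CPM in any library, one of -1.16, adjusted p = 0.157. Vim, the filament protein vimentin, went the other way (0.63, adjusted p = 0.116). Without FR4, 2 of the 12 astrocyte markers passed the adjusted threshold, 1 of them higher.

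Markers of neuron classes were counted next, against 10.6% of all genes higher and 12.3% lower at an unadjusted p under 0.05. At an unadjusted p under 0.05, 1 of 10 glutamatergic markers was higher and 1 lower, 2 of 9 upper layer and 3 of 10 deep layer markers were lower, and 2 of 10 GABAergic markers were higher. The medians were -0.10, -0.038, -0.19 and 0.045, in that order. That of the deep layer markers was -0.38 without FC4 and -0.016 without FR2, and 2 of them passed the adjusted threshold without FC4, both lower, and 3 without FR4, 1 of them higher. Of the GABAergic markers 1 passed without FC4 and 1 without FR4, each higher. Bcl11b, a transcription factor of deep layer projection neurons, was at 87.4, 79.8, 94.4 and 69.6 CPM in FC1 to FC4 and 63.1, 41.8, 41.8 and 53.6 CPM in FR1, FR2, FR4 and FR5, without overlap (log2 fold change -0.67, SE 0.15, adjusted p = 0.0623). The interneuron peptides Npy (0.90, adjusted p = 0.0849) and Sst (0.57, adjusted p = 0.143) were higher, and FR1 held the highest level of both, at 135 CPM and 314 CPM.

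Genes of ion channels, receptors and release sites of neurons were lower in FR more often than higher. Of all genes, 12.3% were lower and 10.6% higher at an unadjusted p under 0.05. Of 55 potassium channel genes, 23 were lower (1 past the adjusted threshold, Kcnj6) and 1 was higher at that p, and the median log2 fold change was -0.36. The same counts were 15 lower and 0 higher of 27 glutamate receptor genes (median -0.39), 5 lower and 0 higher of 14 GABA receptor genes (median -0.28) and 6 lower and 0 higher of 21 genes of synaptic vesicles and release (median -0.19). With exon length offsets these 4 medians were -0.19, -0.20, -0.18 and -0.095, each nearer to 0 than without them. The median exon lengths of the 4 lists were 4943, 6094, 6614 and 5211 bases, in the same order. Of all tested genes with exons of 4582 to 6752 bases, 504 of 3191 were lower at an unadjusted p under 0.05. Among those of 6754 bases or more, 1024 of 3190 were. With 1 library left out the potassium channel median ran from -0.42 to -0.21, nearest to 0 without FR1, and that of synaptic vesicles and release from -0.24 to -0.092, nearest to 0 without FC3. Without FR4, 17 potassium channel genes passed the adjusted threshold, 16 of them lower, and without FC4, 8 passed, all lower. The glutamate receptor genes that passed were 6 without FR4 and 3 without FC4, the GABA receptor genes 1 and 1, and the synaptic vesicle and release genes 2 and 0, all lower.

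Gabrb2, the beta 2 subunit of the GABA-A receptor, was at 137, 139, 180.2 and 148 CPM in FC1 to FC4 and 36.4, 30.4, 108 and 71.3 CPM in FR1, FR2, FR4 and FR5. FR1 and FR2 were lowest, FR4 and FR5 lay between them and the FC libraries, and the groups did not overlap (log2 fold change -1.69, SE 0.28, adjusted p = 0.0517). Grin2b, the NMDA receptor subunit that prevails in young neurons, was at 484, 344, 573 and 776 CPM in FC1 to FC4 and 229.9, 192, 496 and 356 CPM in FR1, FR2, FR4 and FR5 (log2 fold change -1.05, SE 0.18, adjusted p = 0.0517). Its FR4 level exceeded that of FC1 and FC2, while each FR library was below the FC libraries of its own batch. Grik3, a kainate receptor subunit, did not overlap (-0.74, adjusted p = 0.0528), and Grm3 (-0.62, adjusted p = 0.0766) and Gria3 (-0.49, adjusted p = 0.086), a metabotropic receptor and an AMPA receptor subunit, overlapped through batch 2. Gabbr2 (-0.33, adjusted p = 0.152), a subunit of the GABA-B receptor, was lower in all FR libraries.

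Of the potassium channels, Kcnma1, the large-conductance calcium-activated channel, was at 79, 74.5, 90.8 and 130.0 CPM in FC1 to FC4 and 21, 15.2, 105 and 51.7 CPM in FR1, FR2, FR4 and FR5 (log2 fold change -1.67, SE 0.31, adjusted p = 0.0517). Kcna3 (-1.83, adjusted p = 0.0517), a voltage-gated channel also used by microglia and lymphocytes, and Kcnk9 (-1.47, adjusted p = 0.0517), a leak channel, had FR1 and FR2 far below all other libraries. In both genes FR4 and FR5 were within the range of FC. Slc8a1, a sodium-calcium exchanger, was at 32.2, 26.1, 39.3 and 51.3 CPM in FC1 to FC4 and 7.46, 6.47, 33.9 and 17.8 CPM in FR1, FR2, FR4 and FR5 (log2 fold change -1.77, SE 0.28, adjusted p = 0.0517), and Atp2b3, a calcium pump of the plasma membrane, was at 126, 108, 119 and 138 CPM in FC1 to FC4 and 34.4, 37, 105 and 80.9 CPM in FR1, FR2, FR4 and FR5 (log2 fold change -1.32, SE 0.21, adjusted p = 0.0517). Atp2b3 did not overlap, and in both genes the batch 1 difference (-2.19 and -1.72) was larger than the batch 2 difference (-1.06 and -0.58).

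Release site genes followed, with Unc13a, a vesicle priming factor, at -0.59, adjusted p = 0.0533, Rims1 at -0.54, adjusted p = 0.0583, and the scaffolds Bsn at -0.52, adjusted p = 0.116 and Pclo at -0.54, adjusted p = 0.125 in log2 fold change and adjusted p. Genes of axon guidance and adhesion were also in this set. Unc5d, a netrin receptor of upper layer neurons, was at 61.9, 55.6, 76.4 and 64.2 CPM in FC1 to FC4 and 39.5, 34.8, 39.1 and 36.7 CPM in FR1, FR2, FR4 and FR5. FR libraries lay within a narrow range below all FC libraries, and the difference was -0.79 in batch 1 and -0.76 in batch 2 (log2 fold change -0.79, SE 0.13, adjusted p = 0.0517). Slit3, a guidance ligand, had a log2 fold change of -0.93, adjusted p = 0.0517, Nav3, a microtubule-binding navigator protein, one of -1.0, adjusted p = 0.0517, and Pcdhgc5, a protocadherin that shares exons with the other genes of its cluster and is therefore uncertain, one of -1.09, adjusted p = 0.0517. Dyrk2, a kinase that regulates proteasomes and protein turnover, was at 23.1, 21.8, 25.1 and 30.2 CPM in FC1 to FC4 and 10.7, 7.39, 17.7 and 18 CPM in FR1, FR2, FR4 and FR5, without overlap (log2 fold change -1.14, SE 0.17, adjusted p = 0.0517), and Heatr5b, which acts in endosomal transport, had a log2 fold change of -0.87, adjusted p = 0.0517.

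Genes of the mTOR pathway, the target of the drug, had no common direction. Of 44 tested members of the complexes, their inputs and targets, 0 passed the adjusted threshold, and the median log2 fold change was 0.030. At an unadjusted p under 0.05, 5 were higher and 11 lower, against 10.6% and 12.3% of all genes. Without FR4, 8 of the 44 passed, 2 of them higher, and without FC4, 4 passed, all lower. Mtor itself, the kinase, was at 136, 127, 145 and 162 CPM in FC1 to FC4 and 87.8, 85.8, 141 and 111 CPM in FR1, FR2, FR4 and FR5 (log2 fold change -0.55, SE 0.13, adjusted p = 0.0627). FR1 and FR2 were the lowest, and FR4 was among the FC libraries. Eif4ebp2, the translational repressor that mTORC1 inactivates in brain, had a log2 fold change of -0.99, adjusted p = 0.0528, with 7.0 and 6.63 CPM in FR1 and FR2 and 22.3 CPM or more in FR4 and FR5. The insulin receptor substrates Irs2 (-0.57, adjusted p = 0.0533) and Irs1 (-0.99, adjusted p = 0.0691), which are inputs to the pathway, were lower within each batch. Autophagy genes were split, with 2 higher and 5 lower of 35 (median 0.028), against 10.6% higher and 12.3% lower of all genes at that p. Atg9a, the lipid scramblase of growing autophagosomes, was at 82.3, 78.3, 74.7 and 80.9 CPM in FC1 to FC4 and 33.9, 40.9, 67.6 and 70.7 CPM in FR1, FR2, FR4 and FR5, without overlap (log2 fold change -0.77, SE 0.17, adjusted p = 0.055), and Pik3r4 (-0.37, adjusted p = 0.112) and Atg2b (-0.35, adjusted p = 0.127) were lower, while Map1lc3a, the autophagosome protein LC3A, was higher (0.46, adjusted p = 0.101). Of 53 lysosomal genes 5 were higher and 2 lower (median 0.0074), both below these shares of all genes. The proton pump subunits Atp6v1g1 (0.45, adjusted p = 0.0895) and Atp6v1f (0.38, adjusted p = 0.167) were higher and Atp6v1a (-0.39, adjusted p = 0.179) was lower. Sterol synthesis and uptake had 3 lower and 0 higher of 24 (median -0.033). Stard4, a sterol transport protein, had a log2 fold change of -0.45, adjusted p = 0.144, and Srebf2, the regulator of the pathway, one of -0.26, adjusted p = 0.223. Without FR4 the adjusted threshold was passed by 4 autophagy genes (2 higher), 5 lysosomal genes (4 higher) and 1 sterol gene (lower). Without FC4 it was passed by 1 autophagy gene (lower) and by 0 of the other 2 lists. Of all genes, 1684 of 16179 passed it without FR4 and 486 of 16189 without FC4.

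Ribosomal protein and respiratory chain genes had medians above 0 in FR, and 0 of them passed the adjusted threshold. All 78 tested cytosolic ribosomal protein genes had a log2 fold change above 0 and 62 of them an unadjusted p under 0.05, against 10.6% of all genes, with a median of 0.38. Their sum was 15695, 16298, 16445 and 10572 CPM in FC1 to FC4 and 21102, 22371, 10620.0 and 14909 CPM in FR1, FR2, FR4 and FR5. FR4 and FC4 were nearly equal, and FR5 lay below the FC libraries of batch 1. Rpl29 (0.50, adjusted p = 0.0691), Rps19 (0.49, adjusted p = 0.0798) and Rps20 (0.50, adjusted p = 0.0798) were among the members of lowest p, and in none of the 78 did the groups separate. Without FR4, 54 of 79 passed the adjusted threshold, and without FC4, 1 of 78, all higher. Of 74 nuclear genes of the respiratory chain, 57 were higher and 0 lower (median 0.40), led by Cox6c (0.54, adjusted p = 0.0553), Ndufa6 (0.50, adjusted p = 0.0668), Ndufb9 (0.49, adjusted p = 0.0691) and Cox7c (0.48, adjusted p = 0.0703), subunits of complexes IV and I. Without FR4, 48 of the 74 passed, and without FC4, 9, all higher. Of 31 proteasome genes 8 were higher and 0 lower (median 0.20, 0.12 without FR5). Without FR4, 7 of the 31 passed, all higher, and without FC4, 0. With exon length offsets the 3 medians were 0.15, 0.14 and 0.069, and the ribosomal and respiratory genes at an unadjusted p under 0.05 were 17 and 19, all higher.

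Mitochondrially encoded protein genes had a median of 0.52, with 1 of 13 past the adjusted threshold without FR4. At an unadjusted p under 0.05, 11 of the 13 were higher, against 10.6% of all genes. With exon length offsets the median was 0.21, and 0 of the 13 had an unadjusted p under 0.05. mt-Co1, the main subunit of cytochrome oxidase, was at 14286, 14398, 19391 and 12167 CPM in FC1 to FC4 and 23852, 26288, 14194 and 14096 CPM in FR1, FR2, FR4 and FR5 (log2 fold change 0.49, SE 0.15, adjusted p = 0.107). FR1 and FR2 were the highest libraries and FC3 the next, while FR4 and FR5 lay at the level of FC1 and FC2. mt-Atp6 (1.13, adjusted p = 0.105), mt-Co2 (0.93, adjusted p = 0.0869) and mt-Nd3 (0.80, adjusted p = 0.101) were counted at far lower levels. Mitochondrial genes held 3.89%, 3.85%, 5.47% and 3.43% of read pairs in FC1 to FC4 and 6.88%, 6.98%, 4.17% and 4.19% in FR1, FR2, FR4 and FR5. This share differed by 2.53 percentage points in batch 1 and 0.746 in batch 2 (two-sided exact permutation test within batches over 30 assignments, p = 0.0333, the smallest this design allows, and adjusted p = 0.0832 over 5 library measures). The 100 most abundant genes held 17.5% of read pairs in FC and 19.1% in FR on average (p = 0.0333 by the same exact test), and for the library total that test gave p = 0.4.

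**Figure D4:**
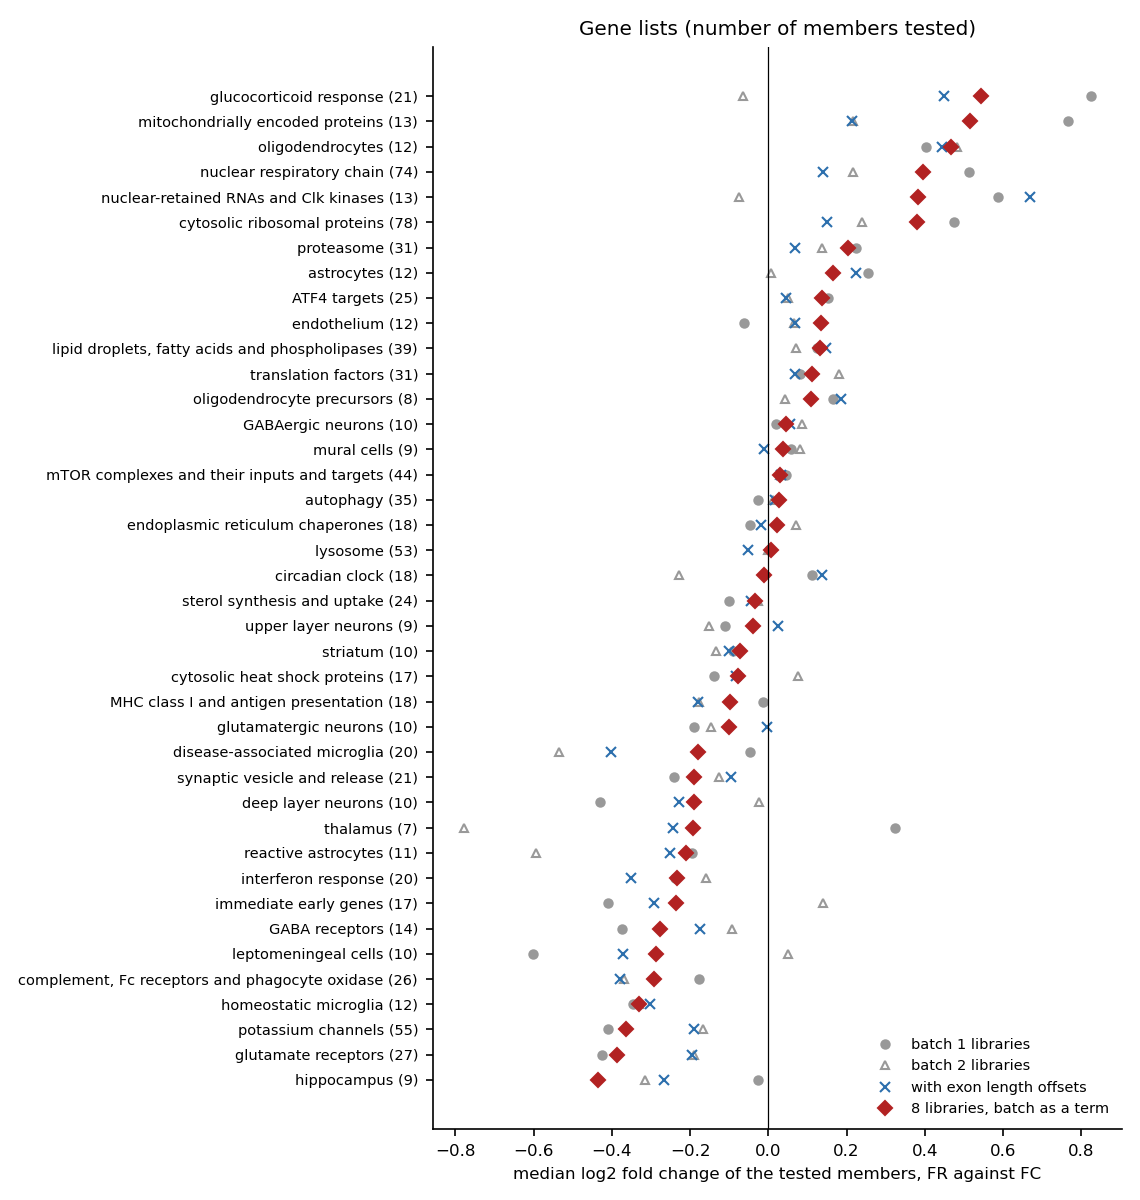
Median log2 fold change of FR against FC (x axis) of the tested members of 40 of the 42 gene lists (y axis, number tested in brackets; choroid plexus and blood are left out), for the 8 libraries with batch as a term, within each batch, and with exon length offsets. Homeostatic microglia and oligodendrocytes had nearly the same median in both batches and with the offsets, whereas ribosomal, respiratory and receptor lists lay nearer to 0 with the offsets.

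The log2 fold change varied with transcript length across all genes tested. The tested genes were cut by exon length into 5 bins of equal size. In the bin with the shortest exons (57 to 2064 bases) the median log2 fold change was 0.27, with 808 genes higher and 84 lower at an unadjusted p under 0.05. In the bin with the longest exons (6754 to 116825 bases) it was -0.22, with 58 higher and 1024 lower. The 3 bins between had medians of 0.12, 0.0016 and -0.079, in order. The same order held in batch 1 (0.32 to -0.26) and in batch 2 (0.15 to -0.17). The median exon length was 2154 bases for genes higher and 6947 bases for genes lower at an unadjusted p under 0.05, against 3852.5 bases for all. The slope on log2 exon length of log2 CPM, centred on the mean of each gene, was 0.0096, -0.0062, 0.078 and 0.12 in FC1 to FC4 and -0.13, -0.14, 0.096 and -0.030 in FR1, FR2, FR4 and FR5. Within each batch the FR libraries had lower slopes than the FC libraries (p = 0.1 by the exact permutation test, adjusted p = 0.167), and FR4 was within the range of FC. The part of these library measures in the results of single genes was not tested beyond the fits given here. Etnppl has exons of 8262 bases. Its call was lost with the exon length slope as a covariate and kept with exon length offsets (log2 fold change 1.97, adjusted p = 0.000271). With those offsets 6 genes passed, of which 2 were higher and 4 lower.

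**Figure D5:**
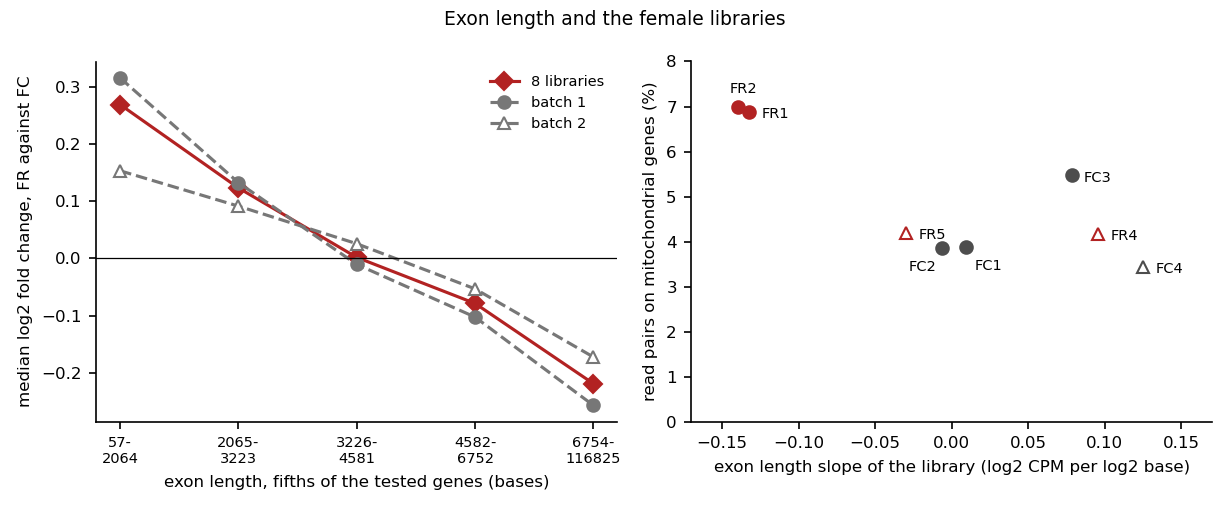
Left, the median log2 fold change of FR against FC (y axis) in the 5 bins of tested genes by exon length in bases (x axis), for the 8 libraries and within each batch. Right, the exon length slope of each library (x axis, log2 CPM per log2 base) against its share of read pairs on mitochondrial genes (y axis, %), where FR1 and FR2 stood apart at the lowest slopes and the highest shares.

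The other lists held smaller or uneven differences. Of all genes tested, 10.6% were higher and 12.3% lower at an unadjusted p under 0.05. Of 17 immediate early genes, which respond to neuronal activity, 4 were lower and 0 higher at an unadjusted p under 0.05. Nr4a3, an orphan nuclear receptor, had a log2 fold change of -0.72, adjusted p = 0.0595. Egr3 (-0.86, adjusted p = 0.1), Fosl2 (-0.69, adjusted p = 0.179) and Npas4 (-0.83, adjusted p = 0.208) are transcription factors induced by activity, and Npas4 was at 4.91 and 9.95 CPM in FR1 and FR2 and at 43.8 and 50.7 CPM in FR4 and FR5, below and above its FC range of 18.8 to 34.4 CPM. Of 25 targets of ATF4, the transcription factor of the amino acid response, 2 were higher and 3 lower. Psat1 (0.44, adjusted p = 0.0835), an enzyme of serine synthesis, was higher without overlap, and the amino acid transporters Slc7a1 (-0.54, adjusted p = 0.0593) and Slc7a11 (-0.60, adjusted p = 0.103) and the lipoprotein receptor Vldlr (-0.42, adjusted p = 0.122) were lower. Cytosolic heat shock proteins had 2 higher and 2 lower of 17, with Cryab, a small heat shock protein, at 0.52, adjusted p = 0.0924 and Hspa4, a chaperone of the HSP110 family, at -0.52, adjusted p = 0.0849. Among 13 nuclear-retained RNAs and Clk kinases 3 were higher, Clk1 (0.70, adjusted p = 0.0764) and Clk4 (0.62, adjusted p = 0.0909) being splicing factor kinases, and the median was 0.59 in batch 1 and -0.075 in batch 2. Translation factors had 5 higher and 3 lower of 31, circadian clock genes 0 higher and 3 lower of 18, and endoplasmic reticulum chaperones 3 higher and 1 lower of 18. Markers of endothelium had 1 higher and 1 lower of 12, and 0 of 9 mural markers had an unadjusted p under 0.05. Markers of tissue next to or around the cortex had at most 2 genes per list at that p (striatum 1 higher and 1 lower of 10, thalamus 2 lower of 7, hippocampus 2 lower of 9, leptomeninges 1 lower of 10, choroid plexus 1 lower of 9 and blood 1 higher of 3). Of all genes, 1684 of 16179 passed the adjusted threshold without FR4 and 486 of 16189 without FC4. In these other lists 0 genes passed the adjusted threshold in the main fit. Without FC4, 3 immediate early genes (all lower), 3 clock genes (2 higher), 2 heat shock genes (both lower), 2 nuclear-retained RNAs and Clk kinases (both higher) and 1 each of translation factors (lower), endothelium and striatum (both higher) passed it. Without FR4 it was passed by 4 heat shock genes (2 higher), 3 translation factors (all higher), 3 ATF4 targets (1 higher), 2 immediate early genes and 2 clock genes (all lower), 2 endothelial and 2 striatal genes (1 higher in each), 1 nuclear-retained RNA or Clk kinase (higher), and 1 each of chaperones, thalamus and hippocampus (all lower).

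The male groups served to ask whether the response differed between the sexes. In males, MR were fed rapamycin and MC the control diet, with the same transgene and ages. The library labelled MR4 had 510 CPM of Xist and 0 CPM of 4 Y-linked genes, unlike the other 7 male libraries, so male values are given with and without it. In a fit of all 16 libraries, 0 genes passed the test of the interaction of sex and treatment by edgeR (360 at an unadjusted p under 0.05, where 828 would be expected by chance), and DESeq2 called 23. Without MR4, 0 genes passed by edgeR, with 528 at an unadjusted p under 0.05. The log2 fold change of Etnppl was 1.75 in females and 0.90 in males (0.80 without MR4), with an unadjusted interaction p of 0.000623 and an adjusted p of 0.999 (0.000324 and 0.997 without MR4). That of Fam107a was 0.74 and 0.21 (0.19 without MR4), and that of Unc5d was -0.78 and -0.14 (0.021 without MR4), also with an adjusted interaction p of 0.999 (0.997 without MR4). Kcnj6 was alike in both, at -1.0 and -0.95 (-0.81 without MR4). For Fcrls the values were -0.97 and -0.32 (-0.63 without MR4), with an unadjusted interaction p of 0.0489 (0.318 without MR4). Oligodendrocyte markers had a median of 0.43 in females and -0.083 in males (-0.26 without MR4), homeostatic microglia -0.36 and -0.088 (-0.28 without MR4), glucocorticoid response genes 0.55 and 0.51 (0.61 without MR4) and cytosolic ribosomal proteins 0.36 and 0.37 (0.29 without MR4). No difference between the sexes was tested over a list, and none of the genes named here passed the test of the interaction.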

How the data were processed

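RNA of mouse cortex was sequenced as paired ends from poly(A)-selected libraries. The authors deposited raw read pair counts per gene, and per the labels the reads were processed with Trim Galore, FastQC 0.11.9, Trimmomatic 0.39, HISAT2 2.2.1 and featureCounts 2.0.3. Alignment was to GRCm38, exons were counted by gene symbol without regard to strand, so overlapping and antisense genes share reads, and positions are those of the deposited table. The genes, lists and tests described here were chosen with earlier results of these data known.

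Genes with too few counts were removed with filterByExpr of edgeR 4.0.16 (minimum count 10, R 4.3.3), TMM factors were computed, and FR was compared with FC in the 8 female libraries by edgeR's quasi-likelihood test with batch as a term and Benjamini-Hochberg adjustment over all 15958 genes tested. DEGs had an adjusted p below 0.05 and a fold change of 1.5 or more. CPM values use the TMM library sizes. All 47593 genes of the table were read, 18856 had no count in these libraries, and tested genes held 99.9% of read pairs. The libraries of 16393501 to 20593089 read pairs had a biological coefficient of variation of 0.18. The sex by treatment interaction was fitted over all 16 libraries. Library measures were compared with two-sided exact permutation tests within batches.

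Named genes were up to 12 per direction that were DEGs or, where fewer, had the lowest unadjusted p with the same direction in both batches and a mean of at least 1 CPM, the 5 of lowest p in each direction, the lipid and phagosome genes the study named with Mtor, and up to 4 members of lowest p, or defining members, of each of 42 lists (911 genes, 3 found by an older symbol). Capza1 was chosen after its values were seen, and some genes under this rule are not reported here. Exon length offsets were a lowess curve of each library on log2 exon length (span 0.3).

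The labels number the replicates, and deviations from the mean of each group correlated at 0.449 for FC1 and FR1, 0.459 for FC2 and FR2 and 0.668 for FC4 and FR4, which share batch 2. These values passed the limit set for this check, 0.1 in every pair. Batch was not removed from these deviations, and most libraries of unlike number in the same batch passed it too. FC1 and FR2 were at 0.144, FC3 and FR1 at 0.246, FC3 and FR2 at 0.168 and FC4 and FR5 at 0.232, while FC2 and FR1 were at 0.071. The check over both batches thus cannot tell pairing from a shared batch. Within batch 1, deviations from the means of its own libraries correlated at 0.284 for FC1 and FR1 and 0.318 for FC2 and FR2. They were at -0.284 for FC1 and FR2, -0.318 for FC2 and FR1, and 0.081 for FC3 and FR1. FR1 and FR2 are the only FR libraries of batch 1, so their deviations mirror each other. These values do not settle whether the libraries are paired. The main fit did not pair the libraries, and blocked values are given where they change a call. The alternatives were other samples, batch terms, DESeq2 1.42.0, RLE factors, no filter, a robust prior, exon length, and each library left out. The code was tested on simulated data.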

Additional observations from a re-analysis of the deposited data

Results flagged for a closer look

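In 5 of 74 groups of 4 libraries tested, 1 library stood apart from the other 3 by Dixon's ratio of its gap to the whole range, where chance gives 3.7. Hspb1 was at 12.1 CPM in FR4 and at 8.55 to 8.86 CPM in the other FR libraries (ratio 0.914). Kcnj6 was at 33.8 CPM in FC4 and at 19.5 to 20.8 CPM in the other FC libraries (ratio 0.908). FC4 was also apart for Pla2g3, at 7.09 CPM against 1.47 to 2.26 CPM (ratio 0.858), and for Pcdhgc5, at 139.6 CPM against 92.6 to 100.5 CPM (ratio 0.831). Fcgr2b was at 5.05 CPM in FR5 and at 7.26 to 7.66 CPM in the other FR libraries (ratio 0.844). FC4 is the only FC library of batch 2, so its batch and the library cannot be told apart.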

How the results depend on the processing

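The count of genes that passed moved most with the libraries. It was 1 without the batch term and 1 with the replicate number as a block (libraries 1, 2 and 4), 1029 in batch 1 alone (888 DEGs), 1208 with DESeq2 (658 DEGs), 1601 without a filter on low counts (902 DEGs), 6 with exon length offsets and 0 with either library measure as a covariate, mitochondrial share (799 genes at an unadjusted p below 0.05) or exon length slope (392 genes). With 1 library left out it ran from 2 to 1684 (DEGs from 2 to 921), with 486 without FC4 and 1684 without FR4. The replicate block lost the calls of Gm3608 and Kcnj6 and no other. For the interaction of sex and treatment, DESeq2 called 23 genes and edgeR without a filter 87, against 0. The cause was not tested.

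Of the values of the 109 genes considered for the text under these alternatives, 1785 kept direction and side of the threshold, 331 came to pass it, 18 no longer passed, 27 values with no test moved and 19 turned direction, as follows. Without the batch term Npas4 was at a log2 fold change of 0.14. With the exon length slope as a covariate Itgb3 was at 0.046, Apoe at -0.20, Sst at -0.15, Map1lc3a at -0.055, Atp6v1f at -0.17 and Slc7a11 at 0.055. With the mitochondrial share Pla2g3 was at -0.23, mt-Co2 at -0.14, mt-Nd3 at -0.026, mt-Atp6 at -0.096, Egr3 at 0.043, Fosl2 at 0.093 and Npas4 at 0.22. In batch 2 alone Pla2g3 was at -0.26, Itgb3 at 0.059, Egr3 at 0.070, Npas4 at 0.45 and Clk4 at -0.0087. With 1 library left out, these list medians turned sign: glutamatergic neurons ran from -0.17 to 0.0033, upper layer neurons from -0.28 to 0.040, endothelium from -0.051 to 0.28, mural cells from -0.042 to 0.29, striatum from -0.29 to 0.072, thalamus from -0.43 to 0.38, sterol genes from -0.22 to 0.082, immediate early genes from -0.47 to 0.028 and clock genes from -0.19 to 0.12. GABAergic neurons, mTOR, autophagy, lysosome, chaperones and heat shock proteins did so within -0.14 to 0.075. The difference in mitochondrial share ran from 1.5 to 2.53 percentage points and that of the 100 most abundant genes from 1.63 to 2.98, both highest without FC4, which removes batch 2 from the comparison. Leaving out each library for these measures was chosen after seeing the data. With 4 libraries a group and the 2 batches unequal, batch 2 rests on 1 FC library.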
